A study of Mus musculus with 6 samples.

Results

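The TGF-β ligands, receptors and SMADs described here are 10 genes, picked by symbol from the 53700 genes of the deposited expression table: the ligands Tgfb1, Tgfb2 and Tgfb3, the receptors Tgfbr1, Tgfbr2 and Tgfbr3, and the intracellular mediators Smad2, Smad3, Smad4 and Smad7. Each symbol named 1 Ensembl identifier, and all 10 genes were above the filter on low values. Poly-A mRNA was sequenced from SL4, a luciferase-expressing mouse colorectal cancer (CRC) cell line, in 3 libraries of control cells (pLV-Control) and 3 libraries of cells stably carrying a lentivirus for SEMA6A (pLV-SEMA6A), a transmembrane semaphorin. No treatment or time course separated the groups, and the sources used here do not say whether the control cells carried an empty vector. No independently made pLV-SEMA6A lines are described, so SEMA6A and a difference between cell lines cannot be told apart. The labels do not say whether the 3 libraries of a group came from separate cultures, so p-values measure the spread between these libraries, which may be technical.

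TGF-β is secreted as a latent complex, held by latency proteins until proteases, integrins or thrombospondin release it. The free dimer binds the type II receptor TGFBR2, which phosphorylates the type I receptor TGFBR1, and betaglycan (TGFBR3) presents ligand to the pair. TGFBR1 phosphorylates SMAD2 and SMAD3, which join SMAD4, enter the nucleus and act on target genes, while SMAD7 blocks the type I receptor. In the colon the pathway restrains epithelial growth and tumours often lose TGFBR2 or SMAD4, whereas ligand from tumour cells acts on fibroblasts and T cells.

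The ligands were the group with the largest changes. Tgfb1 and Tgfb2 were lower in the pLV-SEMA6A group by close to a halving of their TPM, and Tgfb3 was lower by 25%. None of the 3 receptors passed the test. Among the SMADs, Smad2 was lower and Smad4 higher, both by less than the ligands, and Smad3 and Smad7 did not pass. In bulk RNA, fewer cells with a transcript and less of it per cell cannot be told apart.

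The promoter windows of Tgfb1 and Tgfb2 are shown because these genes were the only DEGs of the 10, a choice made after their values were seen. Each line gives the 250 bases before the annotated transcript start from RefSeq, GRCm38.p6, 5′ to 3′ on the gene's strand. Tgfb1 is at chr7:25686752-25687001 on the plus strand and Tgfb2 at chr1:186705990-186706239 on the minus strand. Capitals mark GC boxes (GGGCGG on either strand) in Tgfb1, and a SMAD box (CAGACA) followed by a TATA box (TATAAA) in Tgfb2.
Tgfb1: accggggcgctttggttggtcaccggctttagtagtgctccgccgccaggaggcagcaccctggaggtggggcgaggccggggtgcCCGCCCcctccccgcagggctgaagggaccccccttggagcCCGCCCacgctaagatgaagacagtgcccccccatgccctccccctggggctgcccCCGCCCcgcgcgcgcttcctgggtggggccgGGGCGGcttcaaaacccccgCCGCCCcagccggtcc
Tgfb2: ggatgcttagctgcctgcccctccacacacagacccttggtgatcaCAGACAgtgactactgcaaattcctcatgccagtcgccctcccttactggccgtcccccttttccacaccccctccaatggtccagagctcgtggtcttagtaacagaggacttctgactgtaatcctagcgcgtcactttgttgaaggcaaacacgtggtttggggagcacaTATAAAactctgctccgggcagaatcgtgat

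The sequences differ in composition. The Tgfb1 window is 75.2% GC and holds 5 GC boxes, with no TATA box in these letters. The Tgfb2 window is 53.6% GC, near the median of 52.4% over 32851 windows of the same length, and its TATA box lies 31 to 26 bases before the start. Over all windows, 32.7% held a GC box, 12.4% a TATA box and 17.1% a SMAD box, counted on both strands. Neither window held AP-1 (TGANTCA, in 6.75% of all windows), CRE (TGACGTCA, 1.55%), GAS (TTCNNNGAA, 7.02%) or ISRE core (GAAANNGAA, 7.13%) letters, and none of the matches shown overlap. The GC and TATA boxes were added to the search after these sequences were seen. A match is a description of the letters and not a measured site. RefSeq windows were found for 5 of the 10 genes, the others being Smad3, Tgfbr1 and Tgfbr2. These others did not pass the test, and some held like letters. A Tgfbr1 window was 74.8% GC with GC boxes, and another Tgfbr1 window held a SMAD box. The Smad3 window was 69.2% GC with GC boxes, and the Tgfbr2 window was 58.4% GC without these boxes.

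Expression was given as TPM, a relative level corrected for transcript length, so that genes can be ranked within a library. Read numbers behind a TPM value cannot be recovered, which leaves no detection limit. Library sums ran from 977400 to 986444 TPM, with 19340 to 19463 genes above 0 in the pLV-Control libraries and 18798 to 18887 in the pLV-SEMA6A libraries. Fold changes were taken after log2(TPM + 1), a scale on which low genes seem to change less than they do. limma was run on the 12510 genes whose mean reached 1 TPM, and p-values were adjusted over all of them by Benjamini-Hochberg. A gene passed the test at an adjusted p under 0.05, and was a DEG if its absolute log2 fold change was also over 0.5. Sema6a, the check of the labels, was listed at 0 in all 3 controls, against 98.68, 118.42 and 112.22 TPM with pLV-SEMA6A.

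Of 13 markers of colon epithelium, 12 were under 1 TPM in all 6 libraries, and Epcam, Cdx1 and Cdx2 were listed at 0. The other one, Lgals4, had a mean of 2.15 TPM in the pLV-Control group and 0.363 TPM in the pLV-SEMA6A group. Summed over the 13, the level was 1.97 to 3.15 TPM in the pLV-Control libraries and 0.53 to 1.39 TPM in the pLV-SEMA6A libraries, so defining epithelial transcripts were at or near 0 in this CRC line. All 10 immune markers, among them Ptprc at under 1 TPM and Cd3e and Itgam listed at 0, and all 5 endothelial markers were under 1 TPM in each library. Their sums were 0.28 to 0.56 and 0.43 to 0.55 TPM in the pLV-Control libraries and 0.14 to 0.74 and 0.19 to 0.56 TPM in the pLV-SEMA6A libraries. Of 8 fibroblast markers, 4 reached 1 TPM in every library, with a summed level of 126 to 143 TPM in the pLV-Control libraries and 184 to 190 TPM in the pLV-SEMA6A libraries, most of it Col3a1. The list did not move as a whole: of 5 tested, Col1a1 and Col3a1 were higher DEGs, Pdgfra (−0.63) and Pdgfrb (−0.59 on the log2 scale), the receptors for platelet-derived growth factor, were lower DEGs, and Dcn did not pass. Pdgfra did not pass under quantile normalization or without pLV-Control replicate 2 (−0.53), pLV-SEMA6A replicate 2 (−0.57) or pLV-SEMA6A replicate 3 (−0.63), with adjusted p up to 0.0731 by limma, and Pdgfrb was short of the DEG limit under median centring and quantile normalization. Thy1, below the filter, had means of 1.05 TPM in the pLV-Control group and 0.547 TPM in the pLV-SEMA6A group. The part of these markers in the results was not tested.

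Tgfb1 (ENSMUSG00000002603, chromosome 7) encodes TGF-β1, the ligand that the study links to the ubiquitin-like protein ISG15. Its level was 21.45, 20.84 and 21.66 TPM in the controls and 9.49, 12.72 and 10.06 TPM with pLV-SEMA6A. Every pLV-SEMA6A library lay below every control, with the highest of them, replicate 2, still well under the lowest control. The mean fell from 21.3 ± 0.426 to 10.8 ± 1.72 TPM (SD, n = 3), a ratio of 0.505. The log2 fold change of Tgfb1 was −0.93 (SE 0.10, 95% confidence interval −1.18 to −0.69), with an adjusted p of 0.00059 by limma. Of all genes tested, 3.94% had a lower fold change. Isg15 in the same libraries went from 607 ± 20.2 to 167 ± 7.40 TPM (SD, n = 3), a log2 fold change of −1.86.

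Tgfb2 (ENSMUSG00000039239, chromosome 1) encodes TGF-β2, which depends on betaglycan for efficient receptor binding. It was listed at 3.53, 2.79 and 3.70 TPM in the controls and at 1.74, 1.47 and 1.32 TPM with pLV-SEMA6A. The groups did not overlap, although the control replicates spread over nearly 1 TPM. The mean fell from 3.34 ± 0.484 to 1.51 ± 0.213 TPM (SD, n = 3), a ratio of 0.452. Its log2 fold change of −0.79 (SE 0.14, 95% confidence interval −1.13 to −0.45) had an adjusted p of 0.0044 by limma. The interval reaches past the fold limit of 0.5 that defines a DEG. Because the gene is low, the pseudocount of 1 weighs on this value, and with a pseudocount of 0.1 the log2 fold change was −1.09.

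Tgfb3 (ENSMUSG00000021253, chromosome 12) encodes TGF-β3, best known for its part in palate formation. Its level was 11.57, 12.28 and 11.19 TPM in the controls and 8.34, 9.11 and 8.83 TPM with pLV-SEMA6A. The groups were apart and each was tight. The mean fell from 11.7 ± 0.553 to 8.76 ± 0.390 TPM (SD, n = 3), and the log2 fold change was −0.38 (SE 0.06, adjusted p = 0.0036 by limma), which is short of the DEG limit. Tgfb3 overlaps Ttll5 on the other strand, and the strand setting of the quantification is not given in the sources used here. Ttll5 was at 12.6 ± 0.272 TPM in the pLV-Control group and 13.6 ± 2.09 TPM in the pLV-SEMA6A group, with overlapping libraries. Of the 31-base stretches of Tgfb3 transcripts, 9.96% also occur in another gene, mainly Gm48008, which was listed at 0 in every library.

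**Figure D1:**
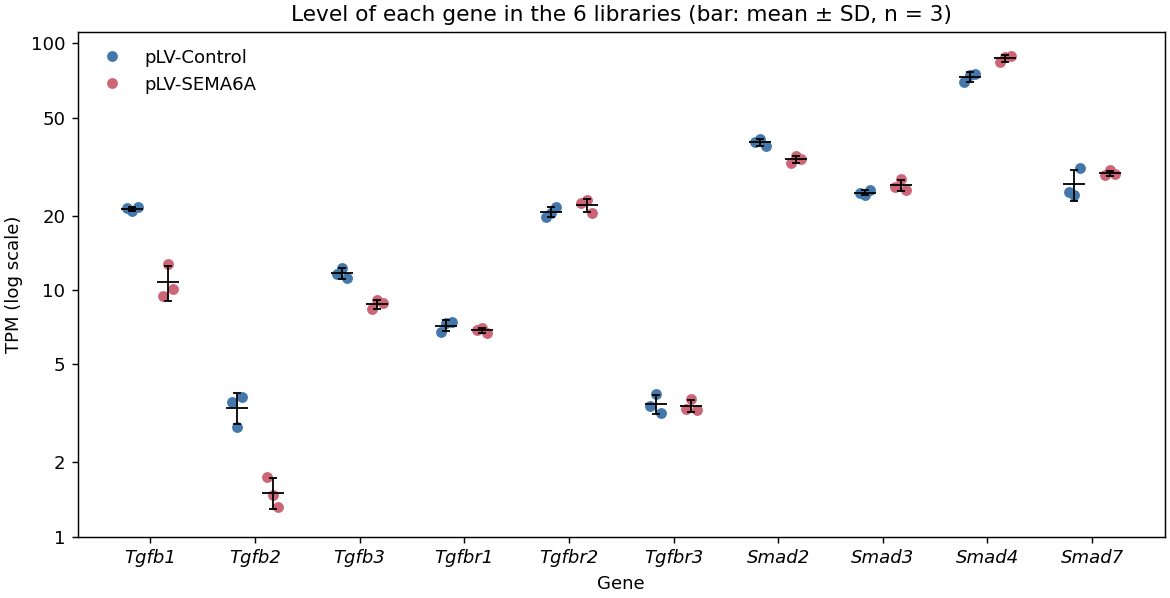
Level of the 10 genes in TPM on a log axis, with 1 point per library and bars for the mean ± SD of 3 libraries. The 3 ligands and Smad2 sit lower in the pLV-SEMA6A libraries and Smad4 sits higher, while the 3 receptors overlap between groups.

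Together the 3 ligands summed to 36.55, 35.91 and 36.55 TPM in the controls and to 19.57, 23.30 and 20.21 TPM with pLV-SEMA6A. The summed level was nearly identical across the controls and lower in each pLV-SEMA6A library. The mean sum was 0.579 of the control (36.3 ± 0.370 against 21.0 ± 1.99 TPM, SD, n = 3, exact permutation test, two-sided, p = 0.1). This p is the smallest that 3 libraries against 3 can give, a limit shared by the permutation tests that follow.

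The mix of ligands shifted with the sum. Sums and shares follow from the levels given above and add no separate support. Tgfb1 made up 58.7, 58.0 and 59.3% of the ligand sum in the controls and 48.5, 54.6 and 49.8% with pLV-SEMA6A. It remained the most abundant ligand in every library, but its share was lower in each pLV-SEMA6A library than in any control, with a difference of the means of −7.71 percentage points (exact permutation test, p = 0.1). The share of Tgfb3 was 32.2 ± 1.84% in the pLV-Control group and 41.8 ± 2.40% in the pLV-SEMA6A group (SD, n = 3, exact permutation test, p = 0.1), again without overlap. This share was larger with pLV-SEMA6A although the level of Tgfb3 itself was lower there. Tgfb2 was the smallest part, at 9.18 ± 1.25% and 7.24 ± 1.43% (SD, n = 3), and its shares overlapped between groups (exact permutation test, p = 0.2).

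**Figure D2:**
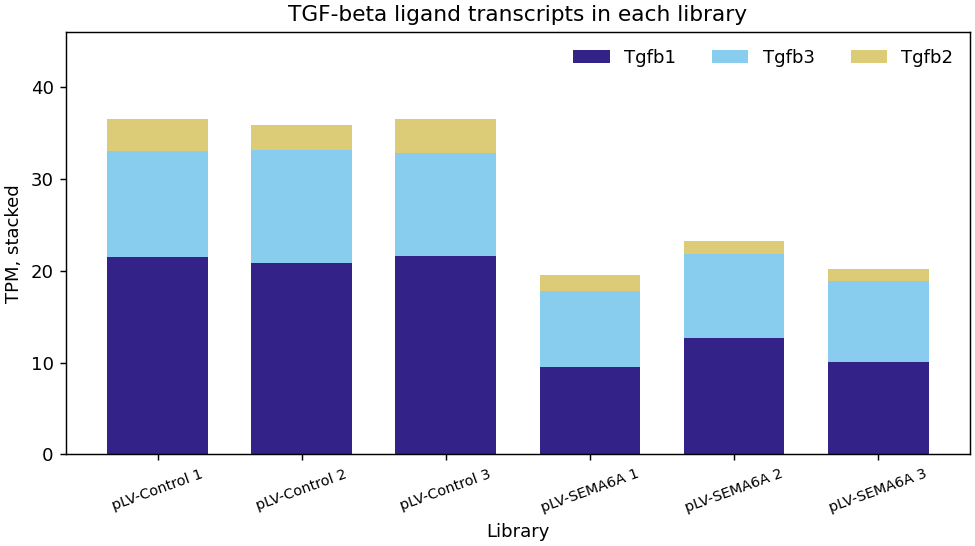
TPM of Tgfb1, Tgfb3 and Tgfb2 stacked for each of the 6 libraries, from 0. The stack is 35.91 to 36.55 TPM in the pLV-Control libraries and 19.57 to 23.30 TPM in the pLV-SEMA6A libraries, and the Tgfb1 block shrinks most.

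The receptors gave a different picture from the ligands. Tgfbr2 (ENSMUSG00000032440, chromosome 9), the ligand-binding type II kinase, was at 19.80, 20.57 and 21.66 TPM in the controls and 22.59, 23.14 and 20.56 TPM with pLV-SEMA6A. The groups overlapped through pLV-SEMA6A replicate 3. The log2 fold change of Tgfbr2 was 0.09 (95% confidence interval −0.06 to 0.24, adjusted p = 0.267 by limma). With each library centred on its median, or with quantile normalization, it was 0.18 and passed the test (adjusted p = 0.0417 and 0.0470 by limma). The interval as reported covers no fall of the size seen for Tgfb1 or Tgfb2.

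Tgfbr1 (ENSMUSG00000007613, chromosome 4), the type I kinase also called ALK5, was at 6.74, 7.38 and 7.39 TPM in the controls and 6.89, 7.03 and 6.72 TPM with pLV-SEMA6A. The groups overlapped over most of their range. Its log2 fold change was −0.05 (95% confidence interval −0.22 to 0.11, adjusted p = 0.572 by limma), and it was 0.04 and 0.10 under median centring and quantile normalization. Tgfbr3 (ENSMUSG00000029287, chromosome 5), the betaglycan gene, was at 3.38, 3.80 and 3.18 TPM in the controls and 3.30, 3.61 and 3.27 TPM with pLV-SEMA6A. The pLV-SEMA6A values lay inside the control range. Its log2 fold change was −0.02 (95% confidence interval −0.26 to 0.23, adjusted p = 0.899 by limma), and its sign turned under both other scalings (0.08 and 0.18) and without pLV-Control replicate 2 (0.04) or pLV-SEMA6A replicate 3 (0.002).

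The receptor sum was 31.3 ± 1.22 TPM in the pLV-Control group and 32.4 ± 1.65 TPM in the pLV-SEMA6A group (SD, n = 3, exact permutation test, p = 0.4). Set against the receptors, the ligand sum went from 1.16 ± 0.0514 to 0.649 ± 0.0475 times the receptor sum (SD, n = 3, exact permutation test, p = 0.1). Ligand transcripts therefore outnumbered receptor transcripts in the pLV-Control libraries and were fewer than them in the pLV-SEMA6A libraries. The ratio of Tgfbr2 to Tgfbr1 was 2.89 ± 0.0850 and 3.21 ± 0.130 (SD, n = 3, exact permutation test, p = 0.1), with the groups apart. These sums and ratios also follow from the levels given above and add no separate support.

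The SMADs were the most abundant of the 10 genes, led by Smad4 (ENSMUSG00000024515, chromosome 18), the shared partner of all receptor-activated SMADs. Smad4 was at 69.52, 74.56 and 75.44 TPM in the controls and 83.88, 88.34 and 88.81 TPM with pLV-SEMA6A. All pLV-SEMA6A libraries were above all controls. The mean rose from 73.2 ± 3.19 to 87.0 ± 2.72 TPM (SD, n = 3), or by 18.9%, with a log2 fold change of 0.25 (SE 0.04, adjusted p = 0.0040 by limma). Smad4 had no 31-base stretch in common with another gene.

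Smad2 (ENSMUSG00000024563, chromosome 18), a receptor-activated SMAD, moved the other way. Its level was 39.94, 41.01 and 38.44 TPM in the controls and 32.75, 34.87 and 34.13 TPM with pLV-SEMA6A. No pLV-SEMA6A library reached the lowest control. The mean fell by 14.8%, from 39.8 ± 1.29 to 33.9 ± 1.08 TPM (SD, n = 3), with a log2 fold change of −0.22 (SE 0.04, adjusted p = 0.0059 by limma).

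Smad3 (ENSMUSG00000032402, chromosome 9), the receptor-activated SMAD that binds DNA directly, was at 24.85, 24.23 and 25.43 TPM in the controls and 26.27, 28.07 and 25.51 TPM with pLV-SEMA6A. The groups did not overlap, but the closest libraries were 25.43 and 25.51 TPM. The log2 fold change of Smad3 was 0.10 (95% confidence interval −0.02 to 0.21, adjusted p = 0.160 by limma), which did not pass the test. Under median centring it was 0.19 (adjusted p = 0.0166 by limma) and under quantile normalization 0.16 (adjusted p = 0.0317 by limma), and both passed.

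Smad7 (ENSMUSG00000025880, chromosome 18), the inhibitory SMAD that TGF-β signalling itself induces, was at 25.05, 24.32 and 31.34 TPM in the controls and 29.22, 30.54 and 29.41 TPM with pLV-SEMA6A. Control replicate 3 was the highest of the 6 libraries and the other 2 controls were the lowest. The log2 fold change of Smad7 was 0.15 (95% confidence interval −0.08 to 0.38, adjusted p = 0.247 by limma). Without pLV-Control replicate 3 it was 0.26 and passed the test (adjusted p = 0.0099 by limma), so the call rests on that library.

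Ratios within the SMADs follow from the levels given above and add no separate support. Smad2 was 1.60 ± 0.0905 times Smad3 in the pLV-Control group and 1.28 ± 0.0540 times in the pLV-SEMA6A group (SD, n = 3, exact permutation test, p = 0.1). Smad4 was 1.13 ± 0.0548 times the sum of Smad2 and Smad3 in the controls and 1.44 ± 0.0452 times in the pLV-SEMA6A group (SD, n = 3, exact permutation test, p = 0.1). Both ratios were apart in all libraries. Smad7 stood at 1.08 ± 0.131 and 1.12 ± 0.0328 times Smad3 (SD, n = 3, exact permutation test, p = 0.6), with overlap. Smad2, Smad4 and Smad7 share chromosome 18 with the endogenous Sema6a gene, and a link to it was not tested.

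**Figure D3:**
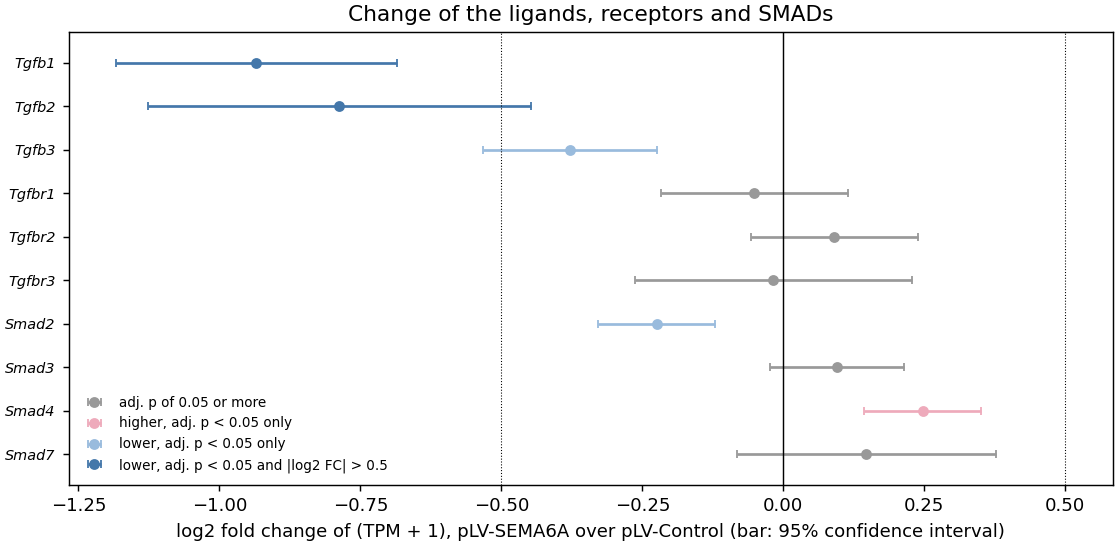
Log2 fold change of TPM + 1, pLV-SEMA6A over pLV-Control, for the 10 genes, with 95% confidence intervals and dotted lines at the DEG limit of 0.5. Tgfb1 (−0.93) and Tgfb2 (−0.79) lie past the limit, Tgfb3, Smad2 and Smad4 are off 0 within it, and the intervals of the other 5 genes cross 0.

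Of the 10 genes, 2 were DEGs, while 15.9% of all genes tested were. Both were lower, as were 10.8% of all genes tested, and none was a higher DEG, against 5.12% overall. With the adjusted p alone, 5 of the 10 passed (1 higher and 4 lower), against 47.6% of all genes tested. The libraries of the groups did not overlap for 6 of the 10, against 58.5%. The count of members that changed was therefore close to what the whole table gave. The median log2 fold change of the 10 was −0.03 and that of all genes tested −0.06. Of all DEGs 67.8% were lower as reported, against 49.0% under median centring and 51.6% under quantile normalization. Tgfb1 and Tgfb2 were the DEGs of the 10 in each of these.

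By level, the order in the pLV-Control libraries was Smad4, Smad2, Smad7, Smad3, Tgfb1, Tgfbr2, Tgfb3, Tgfbr1, Tgfbr3 and Tgfb2. Neighbours did not overlap except Smad7 with Smad3, Tgfb1 with Tgfbr2, and Tgfbr3 with Tgfb2. In the pLV-SEMA6A libraries the order was the same but for Tgfb1, which stood below Tgfbr2 with the libraries apart (at most 12.72 against at least 20.56 TPM). Tgfb2 was also clear of Tgfbr3 there, at no more than 1.74 against at least 3.27 TPM. Smad4 lay above 85.6% of the genes tested by mean TPM, Tgfb1 above 46.2% and Tgfb2 above 11.2%.

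The genes whose pattern over the 6 libraries came closest to that of Tgfb1 were Ypel3, Unc93b1 and Amer1. Closeness was the Euclidean distance between deviations of log2(TPM + 1) from each gene's own mean, which was 0.135, 0.176 and 0.183. Ypel3 went from 83.5 ± 1.31 to 44.9 ± 4.41 TPM (SD, n = 3), Unc93b1 from 24.7 ± 1.88 to 11.9 ± 1.53 TPM, and Amer1 from 4.18 ± 0.131 to 1.81 ± 0.185 TPM. Like Tgfb1, each had its highest pLV-SEMA6A value in replicate 2, a likeness that the choice by this distance favours.

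The rest of the pathway was described with 139 further genes in 6 lists, each counted once, of which 106 were tested and 33 were below the filter. DEGs numbered 10 higher and 14 lower, where 5.12% and 10.8% of all genes tested were. With the adjusted p alone 27 were higher, 37 lower and 42 did not pass, where 47.6% of all genes passed. Their median log2 fold change was −0.04. Under median centring the DEGs were 14 higher and 13 lower, and under quantile normalization 11 and 13. Genes outside the naming rule are included below where they had a known role, a choice made after their values were seen.

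Among 25 genes for the storage and activation of latent TGF-β, 20 were tested, of which 3 were lower DEGs and none a higher one, against 10.8% and 5.12% of all genes tested. With the adjusted p alone 4 were higher, 7 lower and 9 did not pass, where 47.6% of all genes passed (2436 higher and 3523 lower). The median log2 fold change was −0.02. Thbs1, thrombospondin 1, which activates latent TGF-β1, fell from 33.1 ± 0.341 to 17.6 ± 0.495 TPM (SD, n = 3), a log2 fold change of −0.88. Ltbp4, a latent TGF-β binding protein, fell by 0.61 on the log2 scale, or by 0.48 without pLV-SEMA6A replicate 1, which is short of the DEG limit. Bgn, the small proteoglycan biglycan and the most abundant gene of the list, fell from 873 ± 14.3 to 578 ± 1.62 TPM (SD, n = 3), a log2 fold change of −0.59. Ltbp1, which tethers the latent complex to matrix, rose from 84.2 ± 1.57 to 112 ± 0.442 TPM (SD, n = 3). Furin, the protease that cleaves the TGF-β precursor, rose from 34.3 ± 1.18 to 41.3 ± 2.65 TPM (SD, n = 3).

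Of 25 genes that act on the receptors, 22 were tested, with 1 higher and 2 lower DEGs, against 15.9% DEGs among all genes tested. The adjusted p alone gave 4 higher, 7 lower and 11 that did not pass, where 47.6% of all genes passed (2436 higher and 3523 lower). The median log2 fold change was −0.04. Ldlrad4, a membrane inhibitor of SMAD2 and SMAD3 phosphorylation that TGF-β induces, fell from 7.38 ± 1.16 to 3.19 ± 0.322 TPM (SD, n = 3). Dab2, an adaptor in receptor endocytosis, fell from 33.0 ± 0.501 to 18.0 ± 2.37 TPM (SD, n = 3). Cav1, the caveolin linked to receptor turnover, rose from 69.8 ± 1.89 to 103 ± 9.17 TPM (SD, n = 3), a log2 fold change of 0.55, or 0.48 without pLV-SEMA6A replicate 1, short of the DEG limit. The co-receptor endoglin (Eng) showed a log2 fold change of −0.34 and the deubiquitinase Usp11 one of −0.47, and both fell. Fkbp1a, the FKBP12 gene and the most abundant of the list, showed a log2 fold change of 0.07 (adjusted p = 0.0583 by limma), and passed the test under median centring (0.16) and without pLV-SEMA6A replicate 1 (0.09). Its sign turned under quantile normalization (−0.026, adjusted p = 0.385 by limma).

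Nuclear SMAD partners and repressors were tested for 24 of 27 genes, with 1 DEG, which was lower, against 15.9% DEGs among all genes. With the adjusted p alone 1 was higher, 10 were lower and 13 did not pass, where 47.6% of all genes passed (2436 higher and 3523 lower). The median log2 fold change was −0.17. That DEG was Tgif2, a homeobox corepressor of SMAD2 and SMAD3, which fell from 11.6 ± 1.12 to 6.67 ± 0.465 TPM (SD, n = 3). Its relative Tgif1 fell from 154 ± 2.54 to 121 ± 0.821 TPM (SD, n = 3), a log2 fold change of −0.34. Ppm1a, a SMAD phosphatase and the most abundant of the list, showed a log2 fold change of 0.09 (adjusted p = 0.245 by limma), and passed under median centring (0.18). Smad6, the inhibitory SMAD of the BMP branch, showed a log2 fold change of −0.46 (adjusted p = 0.0449 by limma), and did not pass in 10 of 12 alternatives, among them each of the 6 fits that left out 1 library (−0.52 to −0.35).

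The activin and nodal branch, whose ligands use the same SMAD2 and SMAD3, lay mostly below the filter. Of 22 genes 15 were below the filter, and of the 7 tested none was a DEG, while by the adjusted p alone 2 were higher, 3 lower and 2 did not pass. Of all genes tested 15.9% were DEGs and 47.6% passed by the adjusted p. The median log2 fold change was −0.28. Inhba, the activin A subunit, fell from 51.5 ± 2.08 to 42.0 ± 2.03 TPM (SD, n = 3). Fstl3, an activin-binding inhibitor, rose from 41.0 ± 0.280 to 50.2 ± 2.28 TPM (SD, n = 3). Gdf15, a stress-induced member of the superfamily and the most abundant of the list, rose from 84.6 ± 2.04 to 98.8 ± 1.26 TPM (SD, n = 3). It is neither an activin nor nodal, and is not taken here as a ligand that uses SMAD2 and SMAD3.

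Genes that TGF-β is known to raise moved in both directions. Of 40 on the list 32 were tested, with 7 higher and 9 lower DEGs, and with the adjusted p alone 12 were higher, 13 lower and 7 did not pass. Over all genes tested, 15.9% were DEGs and 47.6% passed by the adjusted p. The median log2 fold change was −0.11. Gadd45b, a stress-response gene, fell from 33.0 ± 2.18 to 9.84 ± 1.47 TPM (SD, n = 3), a log2 fold change of −1.66. The cytokine Il11 fell by 0.96 on the log2 scale, the matricellular Ccn2 by 0.75 and the endothelin gene Edn1 by 0.82. Il11 and Edn1 are low, and with a pseudocount of 0.1 they were at −1.63 and −1.39. Ldlrad4, given above with the receptor regulators, is also on this list and fell by 0.99 on the log2 scale.

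The higher DEGs of that list were led by contractile and matrix genes. Acta2, smooth muscle actin, rose from 31.2 ± 1.93 to 94.1 ± 2.83 TPM (SD, n = 3), a log2 fold change of 1.57. Tagln, transgelin, rose from 31.4 ± 0.993 to 79.9 ± 2.35 TPM (SD, n = 3), a log2 fold change of 1.32. The low genes Angptl4, a lipase inhibitor, and Col1a1, a collagen chain, rose by 1.41 and 1.02 on the log2 scale. Cdkn1a, the cell cycle inhibitor p21, rose by 0.71. Col3a1, another collagen chain, rose by 0.53, or by 0.48 without pLV-Control replicate 3 and 0.49 under quantile normalization, both short of the DEG limit. Over the same libraries the summed fibroblast markers, to which both collagens belong, went from at most 143 to at least 184 TPM through Col3a1, while Pdgfra and Pdgfrb fell, and their part in this rise was not tested.

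Pmepa1, a target that feeds back on SMAD2 and SMAD3, showed a log2 fold change of 0.54 (adjusted p = 0.0313 by limma). It was no DEG without pLV-Control replicate 1 (0.48), pLV-Control replicate 3 (0.51, adjusted p = 0.0871 by limma) or pLV-SEMA6A replicate 2 (0.37), nor without the filter on low values (adjusted p = 0.0753 by limma). Fn1, fibronectin, the most abundant target at 1635 ± 35.2 TPM in the pLV-Control group, fell to 1372 ± 49.2 TPM (SD, n = 3). Snai2, an epithelial-mesenchymal transition factor, rose by 0.30 on the log2 scale.

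Of 9 genes that TGF-β signalling is known to lower, 8 were tested, with 2 higher DEGs and no lower one, against 5.12% and 10.8% of all genes tested. With the adjusted p alone 4 were higher, none lower and 4 did not pass, at a median log2 fold change of 0.13. Of all genes tested 47.6% passed by the adjusted p (2436 higher and 3523 lower). Id3, an inhibitor of DNA-binding factors that BMP signalling raises, rose from 10.1 ± 0.280 to 21.1 ± 0.838 TPM (SD, n = 3), a log2 fold change of 0.99. Its relative Id1 rose from 8.37 ± 0.927 to 16.3 ± 0.947 TPM (SD, n = 3), a log2 fold change of 0.89. Id2 and the cyclin gene Ccna2 also passed, at 0.44 and 0.19. Myc, the most abundant of the list, showed a log2 fold change of −0.06 (adjusted p = 0.209 by limma), which was 0.04 under median centring and −0.14 under quantile normalization, where it passed.

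**Figure D4:**
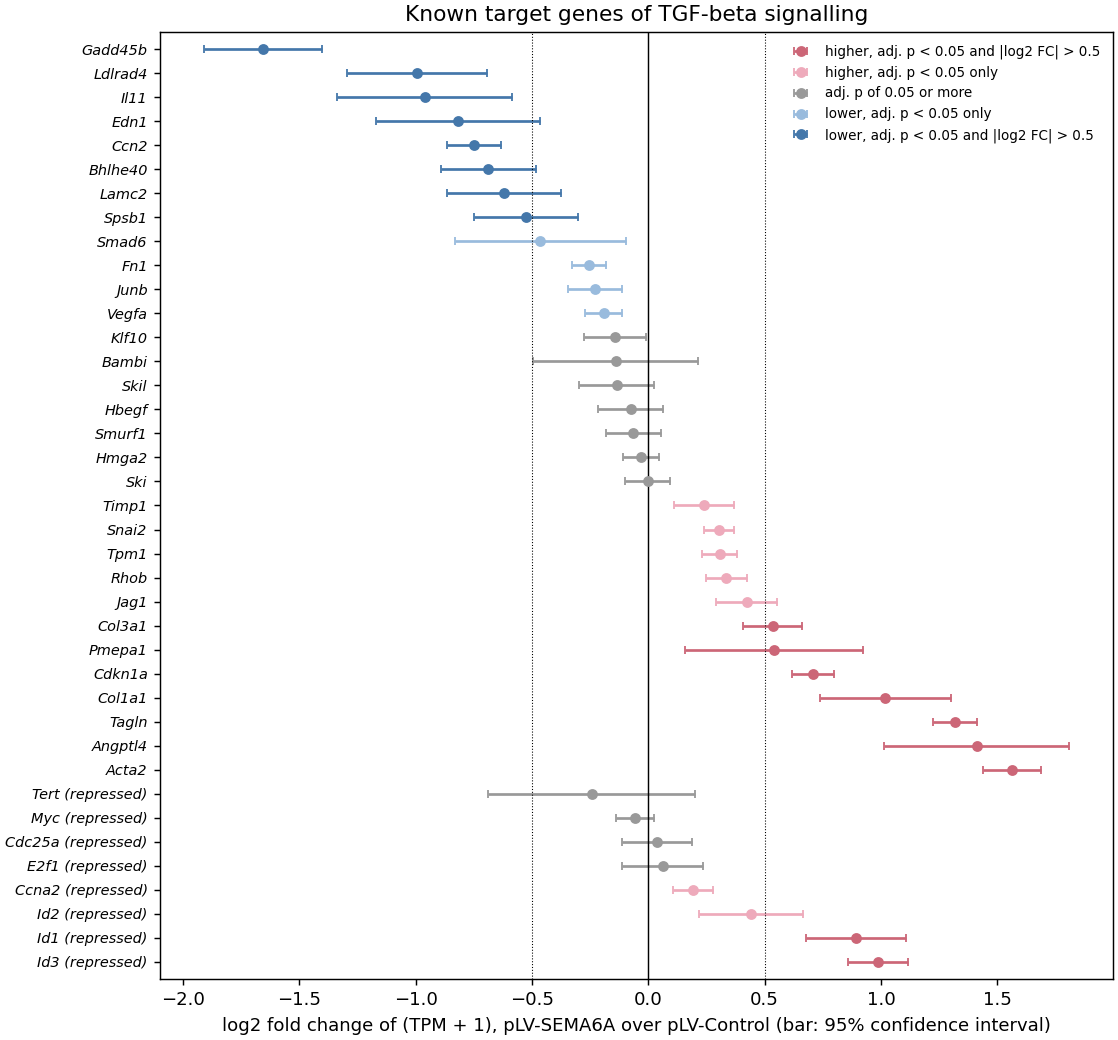
Log2 fold change of TPM + 1, pLV-SEMA6A over pLV-Control, with 95% confidence intervals, for the tested genes that TGF-β is known to raise (all but 1 of them) and, marked as repressed, to lower. The raised targets run from Gadd45b at −1.66 to Acta2 at 1.57, and no tested gene of the repressed list is coloured as lower.

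The 5 members that passed the test were compared over 12 fits with other settings. Dropping the low-value filter, limma without trend and the replicate block cannot move a log2 fold change, only its adjusted p. Tgfb1 ranged from −1.05 to −0.82 on the log2 scale and Tgfb2 from −1.09 to −0.61, and both were DEGs in all 12. Tgfb3 ranged from −0.41 to −0.23, Smad2 from −0.25 to −0.13 and Smad4 from 0.21 to 0.34, and each passed the test in all 12. With a minimum log2 fold change of 1, none of the 10 was a DEG.

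**Figure D5:**
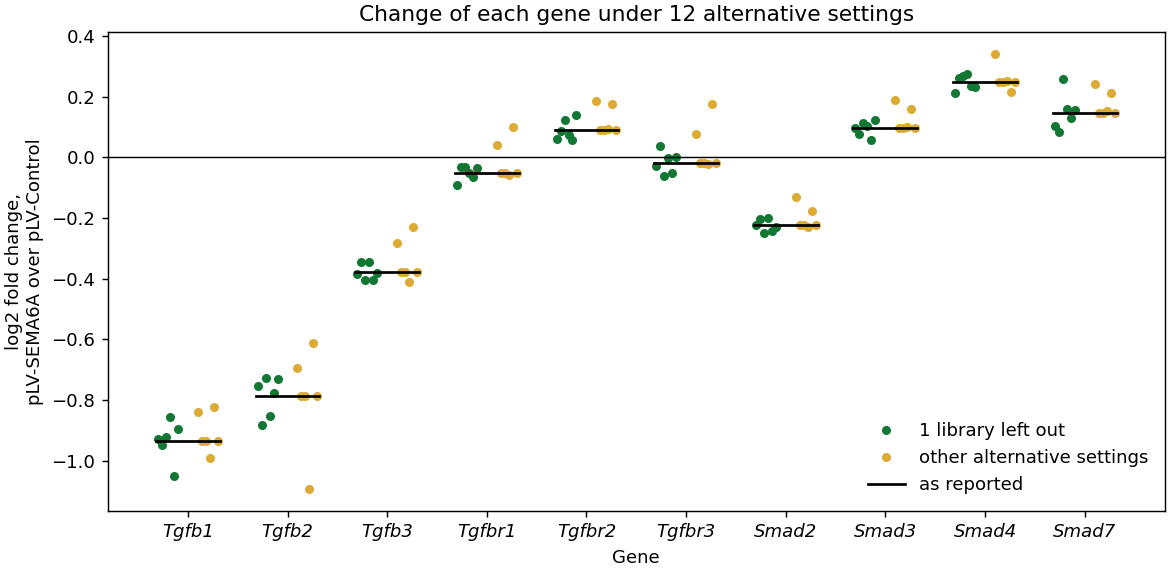
Log2 fold change of the 10 genes as reported (black line), with 1 library left out (green points) and under 6 other settings (yellow points). Tgfb1, Tgfb2, Tgfb3 and Smad2 stay below 0 and Smad4 above it in every setting, while Tgfbr1 and Tgfbr3 fall on both sides. The fits without the filter, without trend and with the replicate block cannot differ from the black line.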

How the data were processed

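The 6 RNA-seq libraries of SL4 cells (3 pLV-Control, 3 pLV-SEMA6A) were analysed from TPM values that the authors deposited with 2 decimals, beside group means in 2 columns that were not used. The submitters' processing notes name HISAT, Bowtie2, RSEM and mm39, without roles or tool versions, and the strand setting is not given in the sources used here. TPM keeps no depth, so no counting interval was computed.

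The fit used limma 3.58.1 under R 4.3.3 on log2(TPM + 1) (trend option, group as the only term, two-sided), for the 12510 genes whose mean reached 1 TPM, with Benjamini-Hochberg adjustment. DEGs were called at adjusted p under 0.05 with a log2 fold change beyond 0.5 either way, limits that the study's supplement gives for limma under functional enrichment. For the SL4 comparison it names a count-based tool and no limits. Sums, shares and ratios were compared by exact permutation tests with SciPy 1.17.1. The limma fit with group as the only term was also tested on simulated data.

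The members and lists were chosen with earlier results of these data known. Of each list, up to 4 DEGs with the largest rise, up to 4 with the largest fall and the most abundant gene are named, with the 3 genes nearest to Tgfb1. Other genes were named after their values were seen. A single listed target counts in the totals but is not itself reported here.

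Overlaps between genes and shared 31-base stretches come from GENCODE M21, which holds 97.0% of the identifiers, and promoter windows from RefSeq on GRCm38.p6. No gene coordinates of mm39 were used. Alternatives comprised dropping the low-value filter, a pseudocount of 0.1, different minimum folds and scalings, limma without trend, the replicate block and leaving out each library.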

Additional observations from a re-analysis of the deposited data

How the results depend on the processing

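TPM keeps no depth, so the precision of low genes such as Tgfb2 cannot be given, and 3 libraries a group allow no permutation p under 0.1. The minimum fold set the counts of DEGs. Without it, 5959 genes passed (2436 higher and 3523 lower), 5 of the 10 members (1 higher and 4 lower) and 64 of the other pathway genes (27 higher and 37 lower). At a minimum log2 fold change of 1, 385 genes passed (81 higher and 304 lower), 6 of the other pathway genes (4 higher and 2 lower) and 0 of the members (0 lower). Median centring gave 1002 higher DEGs in place of 640. The direction turned for genes that had not passed, under median centring for Tgfbr1 (0.042), Tgfbr3 (0.075) and Myc (0.036), under quantile normalization for Tgfbr1 (0.10), Tgfbr3 (0.18) and Fkbp1a (−0.026), and for Tgfbr3 without pLV-Control replicate 2 (0.037) or pLV-SEMA6A replicate 3 (0.0021), where leaving out 1 library gave −0.063 to 0.037. The cause was not tested. Leaving out 1 library gave 1900 to 1975 DEGs, 22 to 24 among the other pathway genes and 2 among the members, with Tgfb1 at −1.05 to −0.86, Tgfb2 at −0.88 to −0.73 and the Tgfb1 share difference at −9.53 to −6.48 percentage points. Libraries with the same replicate number did not deviate together (mean correlation −0.06, from −0.08 to −0.02 over 3 pairs, against 0.03 for other pairs). Deviations were taken from the group means, which ties both averages to each other, so the value for other pairs is no separate comparison. With the replicate block 1924 genes were DEGs, 1875 of them shared with the fit without it, and 2 members were. The block cannot move the Tgfb1 share difference of −7.71 points, since each replicate number occurs in both groups. Smad6 and Pdgfra did not pass with the block (adjusted p = 0.106 and 0.0681 by limma).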
